A study of Homo sapiens with 8 samples.

Results

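The genes of the MHC class II pathway described here are the class II transactivator gene CIITA, the invariant chain gene CD74, and the HLA genes HLA-DRA, HLA-DRB1, HLA-DRB5, HLA-DPA1, HLA-DPB1, HLA-DQB1, HLA-DMA and HLA-DMB. They were taken by symbol and make up 10 of the 20294 genes in a table of RNA-seq read counts. The RNA came from HSC-5, a human cutaneous squamous cell carcinoma line, in which the histone methyltransferase gene EZH2 had been targeted with CRISPR. Of the 8 libraries, 3 carried the guide RNA sgEZH2-1, 3 carried the guide RNA sgEZH2-2 and 2 were Control libraries with the empty vector. In each group the cells stably expressed Cas9 from a lentivirus, and G418 was used to select transduced cells. The labels name no interferon or other cytokine treatment and do not say whether the selected cells were clones or mixed populations. Whether replicate libraries were grown as separate cultures is also not stated, and the p-values therefore measure the spread between these libraries, which may be technical.

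MHC class II molecules are pairs of an alpha and a beta chain that display peptides from endosomes to CD4+ T cells. CIITA is the factor that switches their genes on: it does not bind DNA itself but docks on the RFX, NF-Y and CREB proteins that sit on the X and Y boxes of class II promoters. Professional antigen-presenting cells make CIITA constitutively, whereas keratinocytes and other epithelial cells do so mainly after exposure to interferon-gamma, each from its own CIITA promoter. The enzyme EZH2 works within Polycomb repressive complex 2 and places the repressive mark H3K27me3 on chromatin.

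Library totals ran from 12900023 to 14724566 counts with sgEZH2-1 and from 12607952 to 14257843 counts with sgEZH2-2, against 14299479 and 15468597 counts in Control. The EZH2 transcript stood at 48.0 to 56.4 CPM (read counts scaled by library size) with sgEZH2-1 and at 65.1 to 73.9 CPM with sgEZH2-2, against 82.7 and 84.1 CPM in Control. It fell with sgEZH2-1 (log2 fold change -0.64, edgeR adjusted p = 0.000529) and was at -0.28 with sgEZH2-2 (edgeR adjusted p = 0.0699). Of 10 keratinocyte markers, all were tested and the sum was 3746 to 4162 CPM with sgEZH2-1 and 3500 to 3577 CPM with sgEZH2-2, against 4070 to 4098 CPM in Control. KRT5 was the largest part of it, with means of 1871 CPM with sgEZH2-1 and 1578 CPM with sgEZH2-2, against 2029 CPM in Control. KRT14 was barely detected, at 0.618 CPM with sgEZH2-1 and 0.797 CPM with sgEZH2-2, against 0.474 CPM in Control. With sgEZH2-1, KRT6A, KRT16 (1.09), KRT17 and CDH1 rose and TP63 (-1.01) fell, and with sgEZH2-2 KRT5 and CDH1 fell (edgeR adjusted p up to 0.0320). Of 22 leukocyte markers, 11 had 0 counts in all 8 libraries, among them CD3E, MS4A1, TYROBP and CD1C. The sum over the 22 was 18.1 to 18.5 CPM with sgEZH2-1 and 14.6 to 15.3 CPM with sgEZH2-2, against 12.5 to 12.9 CPM in Control. Most of that sum was CORO1A and LCP1, and the pan-leukocyte gene PTPRC had 10 counts over the sgEZH2-1 libraries and 11 over the sgEZH2-2 libraries, against 10 over the Control libraries. Some weakly detected markers were higher with the guides: LAPTM5 was at 0.695 to 0.821 CPM with sgEZH2-1 and 0.472 to 0.552 CPM with sgEZH2-2, against 0.355 and 0.391 CPM in Control. The Langerhans cell marker CD207 had 4 counts over the sgEZH2-1 libraries and 8 over the sgEZH2-2 libraries, against 0 over the Control libraries. The monocyte marker CD14 was at 0.361 ± 0.213 CPM with sgEZH2-1 and 0.744 ± 0.0518 CPM with sgEZH2-2, against 0.409 ± 0.0247 CPM in Control, and was not called. The part of these markers in the class II values was not tested. LCP1 rose with sgEZH2-1 (1.12, edgeR adjusted p = 0.00211). The endothelial list, nearly all of it CDH5, summed to 76.6 to 81.9 CPM with sgEZH2-1 and 143 to 160 CPM with sgEZH2-2, against 178 to 184 CPM in Control. The fibroblast list, mostly COL1A1, summed to 5.02 to 8.96 CPM with sgEZH2-1 and 11.04 to 14.1 CPM with sgEZH2-2, against 6.13 to 7.24 CPM in Control. COL1A1 was thus higher with sgEZH2-2, like the class II genes (0.88 against Control, edgeR adjusted p = 0.0437), and its part in their change was not tested. In Polycomb repressive complex 2, EED rose by 0.33 with sgEZH2-1, and RBBP4 and RBBP7 fell by 0.37 and 0.21, while SUZ12 and EZH1 were not called.

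RefSeq windows for GRCh38.p14, from 250 bases before to 50 bases after the transcription start, were held for 8 of the 10 genes, not for CIITA or HLA-DRA. Of 9 windows (HLA-DPA1 has 2), 7 contained ATTGG, the core of the Y box, on either strand; both HLA-DPA1 windows lacked it. The same core is in 34.6% of 35116 promoter windows, so its presence alone says little. The longest run of letters shared by the HLA-DRB1, HLA-DRB5, HLA-DMA and HLA-DMB windows is ACTGATGAT, which lies in the X box and is in 0.191% of all windows. It was taken from these 4 windows, so its presence in them is no finding, and it was not found in the other 5. Both strands were searched for both motifs, which do not overlap. The X and Y boxes are where the factors that recruit CIITA bind, so 80 bases around an ATTGG core are printed for the 7 genes. Capitals mark ATTGG on either strand and the shared X box run.
CD74: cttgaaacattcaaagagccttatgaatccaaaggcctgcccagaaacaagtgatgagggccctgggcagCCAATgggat
HLA-DRB1: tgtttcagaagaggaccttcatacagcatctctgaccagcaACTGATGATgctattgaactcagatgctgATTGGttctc
HLA-DRB5: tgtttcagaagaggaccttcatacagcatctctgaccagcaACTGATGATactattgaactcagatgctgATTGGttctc
HLA-DPB1: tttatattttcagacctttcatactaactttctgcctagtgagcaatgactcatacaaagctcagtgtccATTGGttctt
HLA-DQB1: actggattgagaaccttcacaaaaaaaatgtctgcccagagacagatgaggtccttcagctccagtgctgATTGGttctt
HLA-DMA: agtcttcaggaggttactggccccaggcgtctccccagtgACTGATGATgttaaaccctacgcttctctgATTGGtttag
HLA-DMB: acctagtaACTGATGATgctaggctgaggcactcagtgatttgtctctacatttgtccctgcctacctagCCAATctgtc
These windows lie at chr5:150412954-150413033 on the minus strand for CD74, and on chromosome 6 at chr6:32589885-32589964 (minus) for HLA-DRB1, chr6:32530368-32530447 (minus) for HLA-DRB5 and chr6:33075821-33075900 (plus) for HLA-DPB1. HLA-DQB1 is shown at chr6:32666736-32666815 (minus), HLA-DMA at chr6:32953167-32953246 (minus) and HLA-DMB at chr6:32941041-32941120 (minus). Between the X box run and the Y core lie 20 bases in HLA-DRB1, 20 in HLA-DRB5 and 21 in HLA-DMA. In HLA-DMB 53 bases lie before the core shown, which is on the other strand. The core shown for CD74 is also on the other strand. Whether the cores shown for HLA-DMB and CD74 are their Y boxes was not tested. The HLA-DRB1 and HLA-DRB5 windows differ at 1 of 80 bases, G51A (HLA-DRB1 base first, counted from 1 at the 5' end), which is the base just after the shared run. These are reference sequences, and the alleles of HSC-5 may differ from them.

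Class II transcripts were present at low levels in Control cells; most of the 10 genes rose with sgEZH2-2 and 5 of them with sgEZH2-1. The sum of the 8 HLA genes was 59.5, 35.9 and 38.9 CPM in the sgEZH2-1 libraries and 92.1, 93.9 and 97.8 CPM in the sgEZH2-2 libraries, against 22.8 and 26.0 CPM in the Control libraries. The 3 groups did not overlap in this sum. With sgEZH2-2, 9 of the 10 genes rose and 0 fell in edgeR's quasi-likelihood test at an adjusted p of at most 0.05, against 6.18% of 13124 genes called higher and 2.5% called lower. With sgEZH2-1, 5 of the 10 rose and 0 fell, against 11.3% called higher and 9.51% called lower. All 10 genes had every sgEZH2-2 library above both Control libraries, as did 19.3% of all genes, while 20.5% had every one below. For sgEZH2-1, 6 genes lay wholly above Control, CIITA wholly below and 3 overlapped, against 23.7% of all genes above and 24.2% below. The median log2 fold change of the 10 genes was 1.21 with sgEZH2-1 and 2.15 with sgEZH2-2, beside -0.009 and 0.001 over all genes tested. Both comparisons use the same 2 Control libraries. All 10 genes passed the filter on low counts, but HLA-DRB5 and HLA-DPB1 reached the minimum in guide libraries alone and HLA-DQB1 in sgEZH2-2 libraries alone, so these 3 could hardly have been lower with the guides. Among the other 7, 3 rose with sgEZH2-1 and 6 with sgEZH2-2, and their median log2 fold changes were 0.42 and 1.74. In bulk RNA, a larger share of cells that make a transcript and more transcript per cell cannot be told apart.

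**Figure D1:**
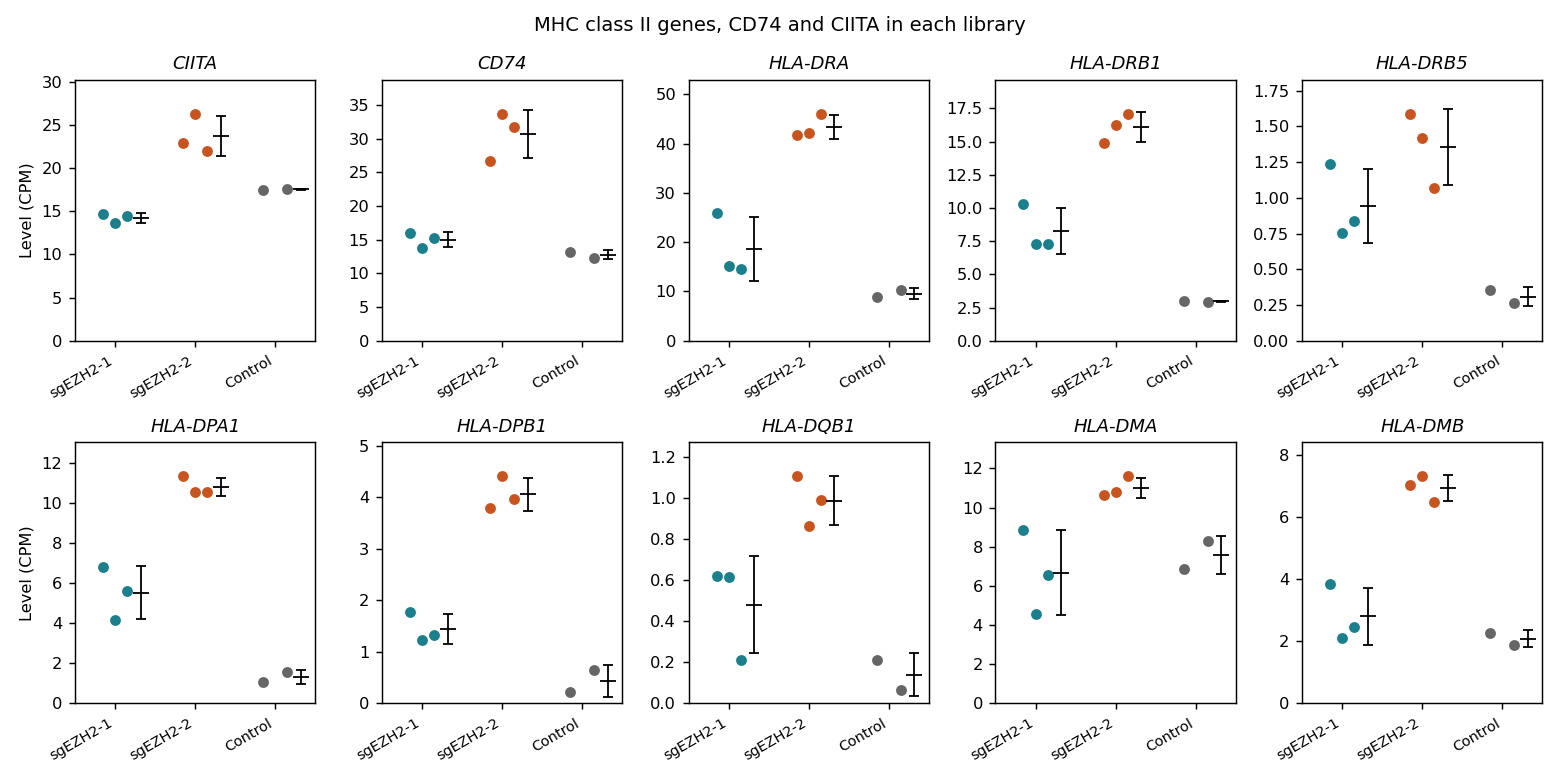
Level of each of the 10 genes in CPM (y axis, from 0) in each library; points are libraries, and the bar and whiskers beside them are the group mean and SD (3 libraries with sgEZH2-1, 3 with sgEZH2-2, 2 Control). In every panel the sgEZH2-2 libraries lie above both Control libraries, whereas sgEZH2-1 libraries lie below Control for CIITA and overlap it for HLA-DMA, HLA-DMB and HLA-DQB1.

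CIITA (ENSG00000179583, GRCh38 chromosome 16, 10866222 to 10943021, plus strand), the master regulator, lay wholly below Control with one guide and wholly above it with the other. It stood at 14.7, 13.6 and 14.4 CPM with sgEZH2-1 and at 22.9, 26.3 and 22.0 CPM with sgEZH2-2, against 17.5 and 17.5 CPM in Control. All sgEZH2-1 libraries were therefore below both Control libraries and all sgEZH2-2 libraries above them. The log2 fold change was -0.30 with sgEZH2-1 (SE 0.10, edgeR adjusted p = 0.0595), which missed the threshold. It passed at -0.30 when the second sgEZH2-2 library was left out of the shared fit (edgeR adjusted p = 0.0498). With sgEZH2-2 CIITA rose by 0.44 (SE 0.10, edgeR adjusted p = 0.0212). That call did not hold without the first Control library (0.44, edgeR adjusted p = 0.108), the second (0.44, edgeR adjusted p = 0.0985) or the second sgEZH2-2 library (0.36, edgeR adjusted p = 0.0748).

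Part of the CIITA count is uncertain. Exons of DEXI, on the opposite strand, cover 12.4% of CIITA exon bases together with another gene there, and AC133065.3 on the same strand covers 11.5%; the strand setting of the authors' counting is not given in the sources used here. DEXI itself had log2 fold changes of -0.11 with sgEZH2-1 (edgeR adjusted p = 0.325) and -0.03 with sgEZH2-2 (edgeR adjusted p = 0.877). The ratio of CIITA to DEXI counts was 0.451, 0.398 and 0.414 with sgEZH2-1 and 0.650, 0.711 and 0.614 with sgEZH2-2, against 0.451 and 0.507 in Control. In that ratio the sgEZH2-2 libraries still lay above Control, and the sgEZH2-1 libraries lay below it, the first of them level with the lower Control value to 3 digits. The gene count also does not tell the alternative CIITA promoters apart.

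HLA-DRA (ENSG00000204287, GRCh38 chromosome 6, 32439842 to 32445046, plus strand) encodes the nearly invariant alpha chain of HLA-DR. It stood at 26.0, 15.1 and 14.6 CPM with sgEZH2-1 and at 41.7, 42.2 and 46.1 CPM with sgEZH2-2, against 8.81 and 10.3 CPM in Control. The groups did not overlap, and the first sgEZH2-1 library was well above the other two. HLA-DRA rose with sgEZH2-1, by 0.95 on the log2 scale (SE 0.23, edgeR adjusted p = 0.0171), and with sgEZH2-2, by 2.18 (SE 0.23, edgeR adjusted p = 0.000265). Without the first Control library the sgEZH2-1 value was 0.85 and was no longer called (edgeR adjusted p = 0.127). Without the first sgEZH2-1 library it was 0.63 and still called (edgeR adjusted p = 0.00369). That library was the highest of its group for each of the 10 genes. It also had the lowest total of its group, 12900023 counts, and the lowest RFXANK level, 14.6 CPM beside 21.3 and 21.2 CPM. It stood apart in genes outside the class II pathway too. TCOF1 was at 246 CPM beside 299 and 314 CPM, and B2M at 931 CPM beside 812 and 846 CPM. Whether these go together was not tested.

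HLA-DRB1 (ENSG00000196126, chromosome 6, 32578769 to 32589848, minus strand) encodes the main polymorphic beta chain of HLA-DR. Its levels were 10.3, 7.25 and 7.28 CPM with sgEZH2-1 and 14.9, 16.3 and 17.1 CPM with sgEZH2-2, against 2.98 and 2.93 CPM in Control. All guide libraries were above Control, with the sgEZH2-2 libraries highest. HLA-DRB1 rose by 1.48 with sgEZH2-1 (SE 0.19, edgeR adjusted p = 0.000538) and by 2.44 with sgEZH2-2 (SE 0.19, edgeR adjusted p = 3.72e-05), and neither call was lost under any alternative run.

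HLA-DRB5 (ENSG00000198502, chromosome 6, 32517343 to 32530287, minus strand), a second DR beta chain present on some haplotypes, had 16, 11 and 12 counts with sgEZH2-1 and 23, 18 and 14 counts with sgEZH2-2, against 5 and 4 counts in Control. These were 0.943 ± 0.258 CPM (SD, n = 3) with sgEZH2-1 and 1.36 ± 0.265 CPM (SD, n = 3) with sgEZH2-2, against 0.308 ± 0.0666 CPM (SD, n = 2) in Control. HLA-DRB5 rose by 1.58 with sgEZH2-1 (edgeR adjusted p = 0.0298) and by 2.12 with sgEZH2-2 (edgeR adjusted p = 0.0117). Leaving out either Control library ended both calls, with edgeR adjusted p of 0.105 and 0.139 for sgEZH2-1 and of 0.0666 and 0.0985 for sgEZH2-2. The sgEZH2-1 call was also lost without the first sgEZH2-1 library (1.35, edgeR adjusted p = 0.0744) and with DESeq2 (1.62, adjusted p = 0.101). HLA-DRB1 and HLA-DRB5 transcripts are 92.4% identical, and 8.42% of the 50-base words of HLA-DRB5 also occur in HLA-DRB1, so reads may have been exchanged. HLA-DRB5 made up 10.2% of the counts of both genes with sgEZH2-1 (exact 95% interval 7.36 to 13.7%) and 7.84% with sgEZH2-2 (5.96 to 10.1%), against 9.38% in Control (4.38 to 17.1%); the intervals overlap. They cover counting error only. With both genes summed the log2 fold changes were 1.49 with sgEZH2-1 and 2.41 with sgEZH2-2.

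The HLA-DP pair was among the genes with the largest fold changes. HLA-DPA1 (ENSG00000231389, chromosome 6, 33064569 to 33080775, minus strand), the alpha chain gene, stood at 6.80, 4.17 and 5.602 CPM with sgEZH2-1 and at 11.3, 10.5 and 10.5 CPM with sgEZH2-2, against 1.07 and 1.57 CPM in Control. HLA-DPB1 (ENSG00000223865, chromosome 6, 33075926 to 33087201, plus strand), the beta chain gene, had 23, 18 and 19 counts with sgEZH2-1 and 55, 56 and 52 counts with sgEZH2-2, against 3 and 10 counts in Control. For both genes the 3 groups were fully separated. HLA-DPA1 rose by 2.05 with sgEZH2-1 (SE 0.26, edgeR adjusted p = 0.000451) and by 3.02 with sgEZH2-2 (SE 0.25, edgeR adjusted p = 5.54e-05), about 4.13-fold and 8.11-fold. HLA-DPB1 rose by 1.69 with sgEZH2-1 (SE 0.41, edgeR adjusted p = 0.0157) and by 3.18 with sgEZH2-2 (SE 0.36, edgeR adjusted p = 0.000495). The HLA-DPB1 call for sgEZH2-1 ended without the first Control library, which had 3 counts: the value was then 1.14 (edgeR adjusted p = 0.117). Without the second Control library, which had 10 counts, it was 2.70 (edgeR adjusted p = 0.0103). With sgEZH2-2 HLA-DPB1 was at 2.63 without the first and at 4.19 without the second Control library, called in both (edgeR adjusted p = 0.00518 and 0.00192). The 2 genes lie head to head and their exons overlap on opposite strands by 1.67% of HLA-DPA1 and 3.44% of HLA-DPB1 bases.

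HLA-DQB1 (ENSG00000179344, chromosome 6, 32659467 to 32668383, minus strand), the DQ beta chain gene, was barely detected. It had 8, 9 and 3 counts with sgEZH2-1 and 16, 11 and 13 counts with sgEZH2-2, against 3 and 1 counts in Control. The sgEZH2-2 libraries were all above Control, and the third sgEZH2-1 library equalled the first Control library in counts. HLA-DQB1 rose by 2.78 with sgEZH2-2 (SE 0.61, edgeR adjusted p = 0.0203) and was at 1.75 with sgEZH2-1 (SE 0.69, edgeR adjusted p = 0.102). The sgEZH2-2 call was lost without the first Control library (3.76, edgeR adjusted p = 0.0610), the second (2.17, edgeR adjusted p = 0.141), the first sgEZH2-2 library (0.0515) or the third (0.0530). The sgEZH2-1 value was called without the third sgEZH2-1 library (2.12, edgeR adjusted p = 0.0426). Its alpha chain partner HLA-DQA1 had 1 count over the sgEZH2-1 libraries and 0 over the sgEZH2-2 libraries, against 0 over the Control libraries, where a count of 0 allows up to 3. Alleles far from the reference can lose reads in alignment, and the part of this in the HLA-DQ counts was not tested.

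CD74 (ENSG00000019582, chromosome 5, 150401637 to 150412929, minus strand), the invariant chain that fills the groove of new class II pairs and guides them to endosomes, lies outside the MHC. Its levels were 15.99, 13.8 and 15.2 CPM with sgEZH2-1 and 26.7, 33.7 and 31.7 CPM with sgEZH2-2, against 13.2 and 12.3 CPM in Control. The sgEZH2-1 libraries lay just above Control, at a log2 fold change of 0.24 that was not called (SE 0.12, edgeR adjusted p = 0.205). CD74 rose with sgEZH2-2 by 1.27 (SE 0.12, edgeR adjusted p = 0.000138). It shares no 50-base word with another gene, and the call held under every alternative run.

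HLA-DMA and HLA-DMB form HLA-DM, the endosomal chaperone that removes the invariant chain fragment and edits the peptide. HLA-DMA (ENSG00000204257, chromosome 6, 32948613 to 32969094, minus strand) stood at 8.88, 4.58 and 6.58 CPM with sgEZH2-1 and at 10.6, 10.8 and 11.6 CPM with sgEZH2-2, against 6.89 and 8.28 CPM in Control. HLA-DMB (ENSG00000242574, chromosome 6, 32934629 to 32941070, minus strand) stood at 3.86, 2.12 and 2.45 CPM with sgEZH2-1 and at 7.04, 7.32 and 6.48 CPM with sgEZH2-2, against 2.27 and 1.89 CPM in Control. For both genes sgEZH2-1 libraries overlapped Control and sgEZH2-2 libraries did not. HLA-DMB rose with sgEZH2-2 by 1.74 (SE 0.25, edgeR adjusted p = 0.00179) and was at 0.42 with sgEZH2-1 (SE 0.27, edgeR adjusted p = 0.299). HLA-DMA had values of -0.19 with sgEZH2-1 (SE 0.23, edgeR adjusted p = 0.588) and 0.53 with sgEZH2-2 (SE 0.22, edgeR adjusted p = 0.173). With sgEZH2-1 the sign of HLA-DMA turned, to 0.034 (edgeR adjusted p = 0.927), without the second sgEZH2-1 library. Exons of BRD2, on the opposite strand, cover 2.17% of HLA-DMA exon bases. Mean BRD2 levels were 340 CPM with sgEZH2-1 and 344 CPM with sgEZH2-2, against 346 CPM in Control. The part of BRD2 reads in the HLA-DMA counts was not tested. The annotation also places AL645941.2 on the same strand, overlapping 9.41% of HLA-DMB and 6.87% of HLA-DMA exon bases. AL645941.2 holds 29% of the 50-base words of HLA-DMB and 10.7% of those of HLA-DMA, and had 3 counts in all. Whether reads of the 2 genes were lost through this overlap was not tested.

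**Figure D2:**
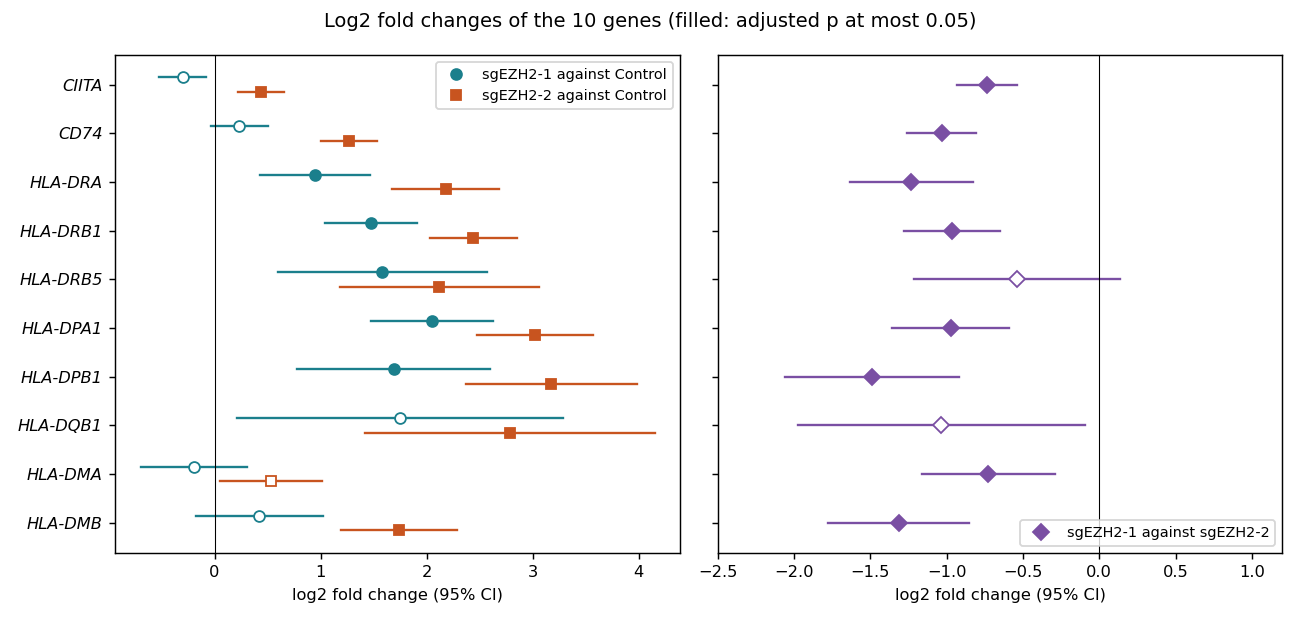
Log2 fold change of each gene (x axis) with its 95% interval from edgeR, for each guide against Control (left) and for sgEZH2-1 against sgEZH2-2 (right); filled symbols passed an adjusted p of 0.05. Values for sgEZH2-2 against Control run from 0.44 for CIITA to 3.18 for HLA-DPB1, and all 10 differences between the guides are below 0.

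The guides differed from each other in the class II genes. Of the 10 genes, 8 were lower with sgEZH2-1 than with sgEZH2-2 and 0 were higher, against 11.5% of all genes called lower and 10.4% called higher in that comparison. In 9 genes every sgEZH2-1 library was below every sgEZH2-2 library, as in 21.2% of all genes (21% lay the other way), and the exception was HLA-DRB5. Of the 9, HLA-DQB1 reached the minimum count of the filter in sgEZH2-2 libraries alone, so it could hardly have lain the other way. Among the 7 genes that reached it in the Control libraries, 7 were called lower and 0 higher with sgEZH2-1. The log2 difference of sgEZH2-1 minus sgEZH2-2 was -0.73 for CIITA (SE 0.09, edgeR adjusted p = 0.000420), -1.03 for CD74 (SE 0.10, edgeR adjusted p = 0.000134) and -1.23 for HLA-DRA (SE 0.18, edgeR adjusted p = 0.00135). HLA-DRB1 was at -0.96, HLA-DPA1 at -0.97, HLA-DPB1 at -1.49 and HLA-DMB at -1.31, with edgeR adjusted p up to 0.00352. HLA-DMA was at -0.73 (edgeR adjusted p = 0.0254), and this call ended without the second (-0.51, 0.0690) or the third sgEZH2-1 library (-0.72, 0.0628) and without the second (-0.74, 0.0681) or the third sgEZH2-2 library (-0.69, 0.0857). HLA-DRB5 at -0.54 (95% interval -1.21 to 0.14, edgeR adjusted p = 0.227) and HLA-DQB1 at -1.04 (95% interval -1.98 to -0.10, edgeR adjusted p = 0.105) did not pass the test. For HLA-DRB5 the interval includes 0. It overlaps the 95% intervals of HLA-DRA (-1.63 to -0.83), HLA-DMB (-1.78 to -0.85) and HLA-DPB1 (-2.06 to -0.92), and no test between genes was made. The EZH2 transcript itself was at -0.36 in this comparison (edgeR adjusted p = 0.00844), lower with sgEZH2-1. RNA counts do not measure EZH2 protein or H3K27me3, so how far each guide reduced these is not known from these libraries.

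**Figure D3:**
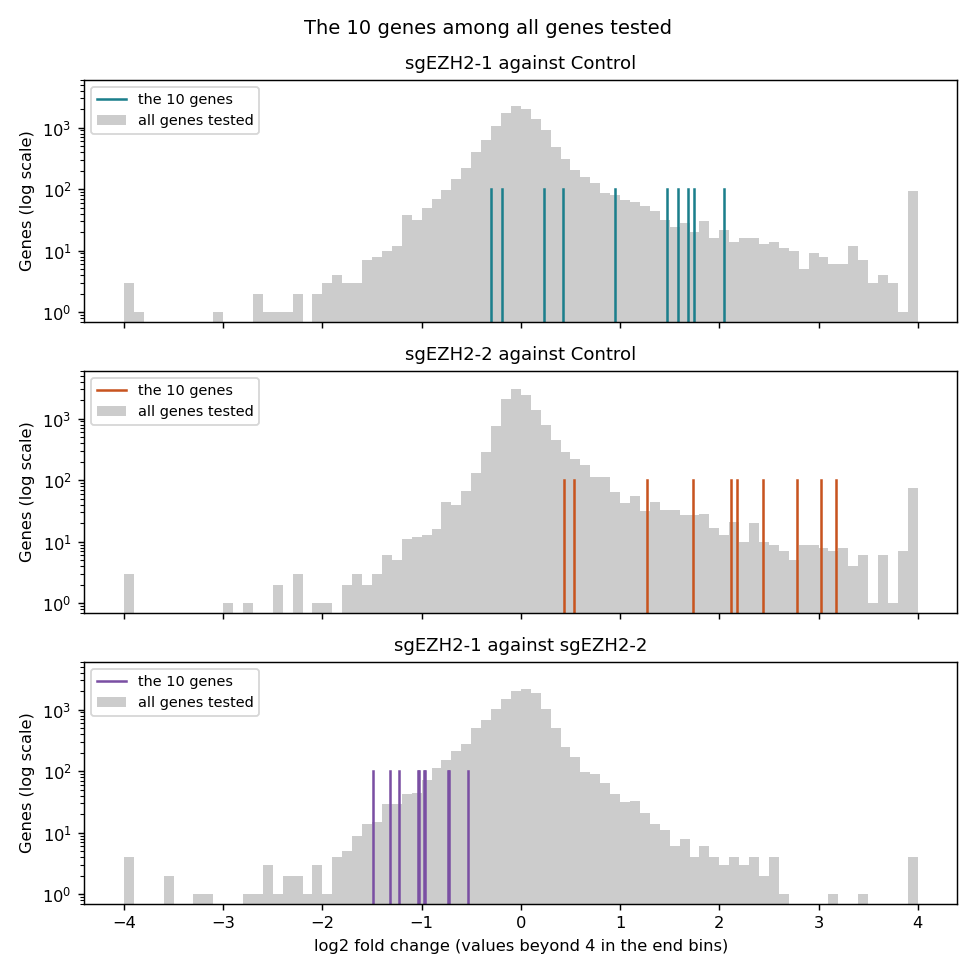
Number of tested genes (y axis, log scale) by log2 fold change (x axis, values beyond 4 in the end bins) in grey, with the 10 class II genes as vertical lines whose height carries no value; the panels are sgEZH2-1 against Control, sgEZH2-2 against Control and sgEZH2-1 against sgEZH2-2. With sgEZH2-2 the lines lie between 0.44 and 3.18, and between the guides they lie between -1.49 and -0.54.

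With both guides pooled against Control, a fit in which any gap between the guides adds to the spread, 3 of the 10 genes rose and 0 fell, against 3.76% of all genes called higher and 0.594% called lower. In 6 genes all 6 guide libraries were above both Control libraries, as in 10.2% of all genes (9.77% were below). HLA-DRB1, HLA-DRB5 and HLA-DPA1 were the called genes. HLA-DRB5 and HLA-DPB1, both among the 6, reached the minimum count of the filter in guide libraries alone, so they could hardly have been lower. Among the 7 genes that reached it in the Control libraries, 2 rose and 0 fell with the guides pooled. HLA-DRA was at 1.69 (edgeR adjusted p = 0.0967) and HLA-DPB1 at 2.62 (edgeR adjusted p = 0.0773). CD74 was at 0.84 (edgeR adjusted p = 0.291), HLA-DMB at 1.22 (edgeR adjusted p = 0.279) and HLA-DQB1 at 2.35 (edgeR adjusted p = 0.131). CIITA at 0.11 (edgeR adjusted p = 0.882) and HLA-DMA at 0.22 (edgeR adjusted p = 0.797) were nearest to 0. Without the first or without the second Control library 0 of the 10 were called, and without the third sgEZH2-1 library 5 were called.

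Scaled to transcript length, the order of levels changed between groups. With sgEZH2-1 HLA-DRA at 15.2 ± 5.28 CPM per kb (SD, n = 3) and CD74 at 14.2 ± 1.04 CPM per kb (SD, n = 3) were highest and did not differ beyond their spread. With sgEZH2-2 HLA-DRA was at 35.4 ± 1.95 CPM per kb and CD74 at 28.96 ± 3.38 CPM per kb (SD, n = 3 each). In Control the order was turned, with CD74 at 12.02 ± 0.634 CPM per kb above HLA-DRA at 7.80 ± 0.864 CPM per kb (SD, n = 2 each) and HLA-DMA at 7.53 ± 0.978 CPM per kb, the last 2 within their spread. HLA-DRB1 was at 6.73 ± 1.41 CPM per kb with sgEZH2-1, within its spread of HLA-DMA at 6.64 ± 2.14 CPM per kb (SD, n = 3 each). With sgEZH2-2 HLA-DRB1 was at 13.1 ± 0.895 CPM per kb and HLA-DMA at 10.9 ± 0.516 CPM per kb, while in Control HLA-DRB1, at 2.41 ± 0.0279 CPM per kb, lay below CIITA. HLA-DPA1 was at 3.24, 6.34 and 0.772 CPM per kb with sgEZH2-1, with sgEZH2-2 and in Control, and CIITA at 3.80, 6.32 and 4.67 CPM per kb. HLA-DPB1, HLA-DRB5 and HLA-DQB1 were the lowest 3 genes in each group, at most 2.60 CPM per kb with sgEZH2-2. In the DR and DP pairs the alpha chain gene was above the beta chain genes in every group. CIITA levels per length depend on the transcript chosen, since its annotated coding transcripts run from 2344 to 16059 bases and their median of 3750.5 was used.

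The class II genes were not in a fixed proportion to CIITA. HLA-DRA counts per CIITA count were 1.77, 1.11 and 1.01 with sgEZH2-1 and 1.83, 1.61 and 2.10 with sgEZH2-2, against 0.504 and 0.587 in Control. Per CIITA count, the 8 HLA genes together had 3.13 ± 0.803 counts in the sgEZH2-1 libraries and 4.02 ± 0.440 counts in the sgEZH2-2 libraries (SD, n = 3 per guide), against 1.39 ± 0.124 in Control (SD, n = 2). All guide libraries lay above Control in both ratios, including the sgEZH2-1 libraries in which CIITA itself was below Control. CD74 counts per HLA count were 0.348 ± 0.0690 in the sgEZH2-1 libraries and 0.324 ± 0.0344 in the sgEZH2-2 libraries (SD, n = 3 per guide), against 0.526 ± 0.0757 in Control (SD, n = 2). No test was made on these ratios. Across the 8 libraries the Pearson correlation of log2 levels with CIITA was 0.85 for CD74, 0.82 for HLA-DMA and 0.81 for HLA-DMB, and from 0.39 for HLA-DRB5 to 0.67 for HLA-DRA among the other HLA genes. The 8 points fall into the 3 groups, so this describes the group pattern only.

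Other class II genes had too few counts to describe well. HLA-DQB2, the 1 of them that passed the filter, had 10 counts over the sgEZH2-1 libraries and 25 over the sgEZH2-2 libraries, against 2 over the Control libraries. Scaled for depth these are 3.52 times Control for sgEZH2-1 (exact 95% counting interval 0.749 to 33.0) and 9.12 times for sgEZH2-2 (2.28 to 79.5), with edgeR adjusted p of 0.429 and 0.151. HLA-DOB, a modulator of HLA-DM, had 11 counts with sgEZH2-1 and 9 with sgEZH2-2, against 3 in Control, and its partner HLA-DOA had 4 and 7 counts, against 1. HLA-DQA2 had 0 counts in all libraries.

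In the DNA-binding complex on which CIITA docks, no gene passed the test. All 8 of its genes were tested (RFX5, RFXAP and RFXANK of the RFX complex, NFYA, NFYB and NFYC of NF-Y, CREB1 and ATF1), and 0 were called in any of the 4 comparisons with edgeR, DESeq2 or limma-voom. At an unadjusted p under 0.05 edgeR had 1 of 8 with sgEZH2-1, 1 with sgEZH2-2, 3 between the guides and 0 with the guides pooled. RFX5, the largest RFX subunit, stood at 46.5 ± 3.96 CPM with sgEZH2-1 and 52.5 ± 1.72 CPM with sgEZH2-2 (SD, n = 3 each), against 50.5 ± 1.47 CPM in Control (SD, n = 2). The list's median log2 fold change was -0.05 with sgEZH2-1 and 0.03 with sgEZH2-2. Against Control the widest single values were 0.20 for RFXAP with sgEZH2-2 (edgeR adjusted p = 0.460) and 0.19 for CREB1 with sgEZH2-1 (edgeR adjusted p = 0.130). Between the guides RFXANK was at -0.31 (edgeR adjusted p = 0.108) and RFXAP at -0.25 (edgeR adjusted p = 0.191). RFX5 at -0.18 and NFYC at -0.13 had the same sign, which is that of the class II genes. NFYA at 0.14, NFYB at 0.15, CREB1 at 0.145 and ATF1 at 0.18 had the other sign. The list's median between the guides was 0.003.

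Among 11 coactivators and chromatin partners of CIITA, 2 fell and 0 rose with sgEZH2-1, beside 9.51% and 11.3% of all genes, and 0 were called with sgEZH2-2 (2 of 11 at an unadjusted p under 0.05 in edgeR, and 0 called with DESeq2 or limma-voom). SIN3A, a corepressor scaffold, was at 142 ± 7.48 CPM with sgEZH2-1 and 162 ± 4.57 CPM with sgEZH2-2, against 171 ± 2.94 CPM in Control, and fell by 0.27 with sgEZH2-1 (edgeR adjusted p = 0.0084). The histone deacetylase gene HDAC1 fell by 0.18 with sgEZH2-1 (edgeR adjusted p = 0.0223). The acetyltransferase gene CREBBP and the elongation kinase gene CDK9 were not called against Control but were called between the guides, at 0.17 and -0.24 for sgEZH2-1 minus sgEZH2-2 (edgeR adjusted p = 0.0371 and 0.0294).

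Interferon-gamma signalling, the usual inducer of CIITA in keratinocytes, is covered by a list of 24 genes. Of these, 19 were tested: 3 rose and 0 fell with sgEZH2-1, and 3 rose and 0 fell with sgEZH2-2, beside 11.3% and 6.18% of all genes called higher. The median log2 fold change of the list was -0.002 with sgEZH2-1 and 0.11 with sgEZH2-2. The interferon-induced transcription factor gene IRF1 rose with sgEZH2-1, by 0.32 (edgeR adjusted p = 0.0284), and was at 0.11 with sgEZH2-2, which was not called (edgeR adjusted p = 0.508). SOCS3, a feedback inhibitor of cytokine receptors, rose by 1.06 with sgEZH2-2 (edgeR adjusted p = 0.000175) and was at -0.05 with sgEZH2-1. The guanylate-binding protein gene GBP4 rose by 0.67 with sgEZH2-1 and 0.53 with sgEZH2-2 (edgeR adjusted p = 0.000593 and 0.00472). Of 6 factors of the B-cell and dendritic-cell CIITA promoters, SPI1 had 0 counts in all libraries, IRF4 and PAX5 had at most 2 counts in a group, and EBF1 had 9 counts with sgEZH2-1 and 12 with sgEZH2-2, against 0 in Control. PRDM1, a repressor of CIITA in plasma cells, was at 0.94 with sgEZH2-1 and 1.28 with sgEZH2-2, neither called (edgeR adjusted p = 0.114 and 0.0641), and TCF3 was at -0.04 and 0.02.

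**Figure D4:**
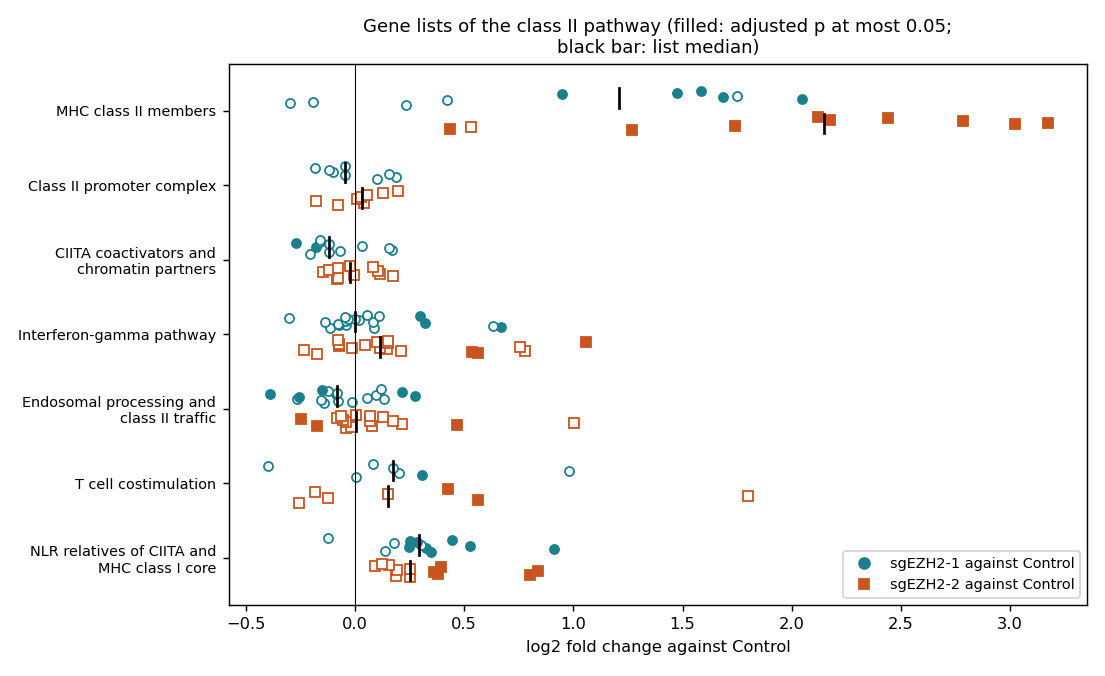
Log2 fold change against Control (x axis) of every tested gene in 7 lists of the class II pathway, with sgEZH2-1 above sgEZH2-2 in each row; filled symbols passed an adjusted p of 0.05 in edgeR and black bars are list medians. The class II genes reach 3.18, whereas the genes of the promoter complex lie between -0.18 and 0.20.

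Of 17 genes for endosomal processing and class II traffic, 2 rose and 3 fell with sgEZH2-1, beside 11.3% and 9.51% of all genes, and 1 rose and 2 fell with sgEZH2-2, beside 6.18% and 2.5%. CTSB, a lysosomal cysteine protease gene, rose by 0.47 with sgEZH2-2 (edgeR adjusted p = 0.000265). CTSL, also a lysosomal cysteine protease gene, rose by 0.28 with sgEZH2-1 (edgeR adjusted p = 0.00989). CTSS, the main protease of the invariant chain in antigen-presenting cells, was at 0.10 and 0.07 with sgEZH2-1 and sgEZH2-2 and was not called. IFI30, the lysosomal thiol reductase GILT, fell by 0.39 with sgEZH2-1 and by 0.25 with sgEZH2-2 (edgeR adjusted p = 0.00210 and 0.0407), and CTSH fell by 0.26 with sgEZH2-1 (edgeR adjusted p = 0.00460). Among the ubiquitin ligases that send class II molecules to lysosomes, MARCHF8 rose by 0.40 with sgEZH2-1 and 0.46 with sgEZH2-2 (edgeR adjusted p = 0.0134 for each), and MARCHF1, at 0.26 and -0.08, and MARCHF9, at 0.15 and 0.30, were not called.

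Of 10 T cell costimulation genes 7 were tested; 1 rose with sgEZH2-1 and 2 with sgEZH2-2, beside 11.3% and 6.18% of all genes. CD40 rose in both, at 21.3 ± 1.03 CPM with sgEZH2-1 and 25.4 ± 0.744 CPM with sgEZH2-2 (SD, n = 3 each), against 17.2 ± 0.847 CPM in Control (SD, n = 2), or 0.31 and 0.56 on the log2 scale (edgeR adjusted p = 0.0274 and 0.00227). TNFSF9, the ligand of 4-1BB, rose by 0.42 with sgEZH2-2 (edgeR adjusted p = 0.00533). The adhesion gene CD58 was called between the guides, at 0.33 for sgEZH2-1 minus sgEZH2-2 (edgeR adjusted p = 0.0466). In 12 genes of the MHC class I core and its transactivator NLRC5, 8 rose with sgEZH2-1 and 5 with sgEZH2-2, beside 11.3% and 6.18% of all genes, with medians of 0.29 and 0.25. HLA-B was at 179 ± 7.001 CPM with sgEZH2-1 and 166 ± 8.52 CPM with sgEZH2-2 (SD, n = 3 each), against 95.2 ± 3.24 CPM in Control (SD, n = 2). Its difference between the guides was 0.11 and not called (95% interval -0.01 to 0.23, edgeR adjusted p = 0.168). HLA-F rose by 0.53 and 0.84 with sgEZH2-1 and sgEZH2-2, while TAP2 and the light chain gene B2M rose with sgEZH2-1 by 0.44 and 0.35 and were at 0.15 and 0.25 with sgEZH2-2. NLRC5 itself was at 0.30 with sgEZH2-1 and 0.19 with sgEZH2-2, neither called (edgeR adjusted p = 0.0731 and 0.331).

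Along chromosome 6, the 8 HLA genes are interleaved with other genes. Between HLA-DRA and HLA-DPB1 the table holds 12 other genes, among them the weakly detected HLA-DQA1, HLA-DQA2, HLA-DQB2, HLA-DOA and HLA-DOB. Of the 12, 7 were tested, HLA-DQB2 at 1.68 and 3.04 (not called) among them: 4 rose with sgEZH2-1 (AL669918.1, TAP1, TAP2 and PSMB9) and 1 rose with sgEZH2-2 (PSMB9), beside 11.3% and 6.18% of all genes called higher. Of the genes called, AL669918.1 had the largest value, at 0.83 with sgEZH2-1 (edgeR adjusted p = 0.0388) and 0.59 with sgEZH2-2 (edgeR adjusted p = 0.195). In the annotation AL669918.1 spans TAP2 and part of HLA-DOB on the same strand, and reads shared among them were not examined. BRD2, which overlaps HLA-DMA on the opposite strand, encodes a bromodomain protein. It was at -0.03 with sgEZH2-1 and -0.01 with sgEZH2-2, with 95% intervals within -0.14 and 0.10. The peptide transporter gene TAP1 was at 0.25 with sgEZH2-1 and 0.09 with sgEZH2-2, TAP2 at 0.44 and 0.15, and the immunoproteasome gene PSMB9 at 0.28 and 0.39. Within 200000 bases of CIITA, 4 of 5 other genes were tested and 0 were called in any comparison with edgeR, DESeq2 or limma-voom (0 also at an unadjusted p under 0.05). Within the same distance of CD74, 1 of 5 tested genes rose with each guide, beside 11.3% of all genes with sgEZH2-1 and 6.18% with sgEZH2-2. It was the actin-binding protein gene SYNPO, at 0.81 with sgEZH2-1 and 0.78 with sgEZH2-2 (edgeR adjusted p = 0.000235 and 0.000597).

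**Figure D5:**
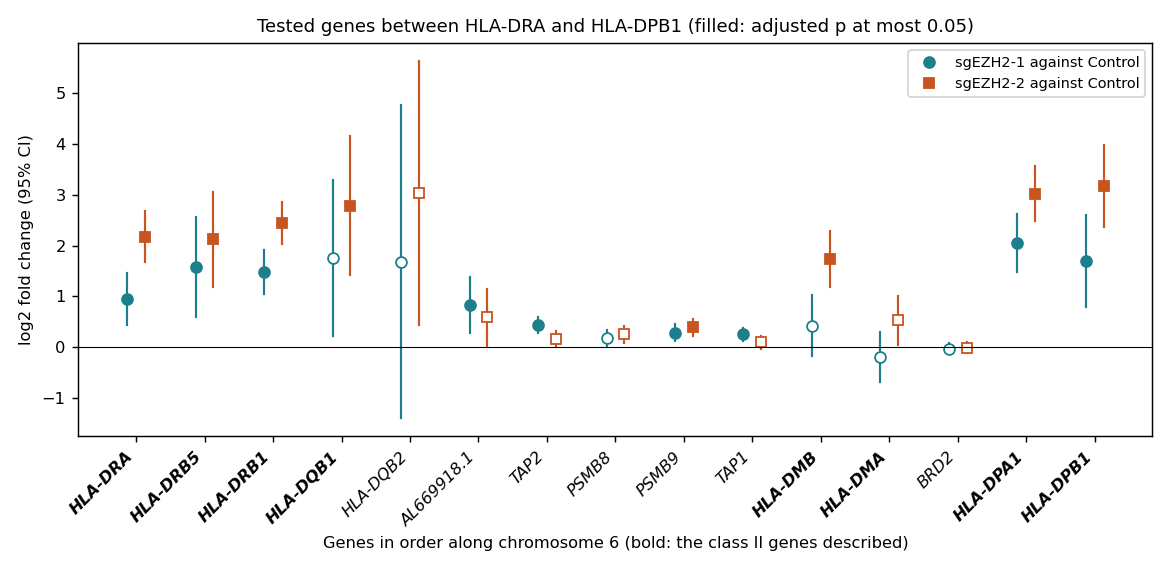
Log2 fold change against Control (y axis) with its 95% interval from edgeR for each tested gene between HLA-DRA and HLA-DPB1, in order along chromosome 6 (not to scale); bold names are the class II genes described and filled symbols passed an adjusted p of 0.05. TAP1, TAP2, PSMB8, PSMB9 and BRD2 lie between -0.03 and 0.44, beside values of up to 3.18 for class II genes around them. With sgEZH2-1 and sgEZH2-2, AL669918.1 is at 0.83 and 0.59 and HLA-DQB2, not called, at 1.68 and 3.04. HLA-DMA, a class II gene, is at -0.19 and 0.53.

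Genes outside the pathway with the most similar pattern over the 8 libraries were found by Pearson correlation of log2 CPM, as a description. For the mean of the 10 genes they were TGM2 (r = 0.985), a tissue transglutaminase gene, PAQR8 (0.983), the doublecortin-like kinase gene DCLK1 (0.982), the mucosal scavenger receptor gene DMBT1 (0.982) and EDAR (0.978), the ectodysplasin receptor gene of skin appendages. TGM2 stood at 3.67 ± 0.451 CPM with sgEZH2-1 and 6.15 ± 0.564 CPM with sgEZH2-2 (SD, n = 3 each), against 2.42 ± 0.194 CPM in Control (SD, n = 2). DMBT1 was weakly detected, with 12 counts over the sgEZH2-1 libraries and 67 over the sgEZH2-2 libraries, against 1 over the Control libraries. For CIITA alone the most similar genes were GALNT12 (0.991), MT1X (0.981), H6PD (0.979), NGFR (0.977) and IFITM1 (0.974). Here too the 8 points fall into the 3 groups. Each of the 5 genes most similar to CIITA was below Control with sgEZH2-1 and above it with sgEZH2-2. NGFR, the nerve growth factor receptor gene, was at 42.4 ± 2.15 CPM with sgEZH2-1 and 81.0 ± 8.25 CPM with sgEZH2-2 (SD, n = 3 each), against 57.4 ± 5.68 CPM in Control (SD, n = 2).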

How the data were processed

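The authors deposited whole-number read counts per gene, with no normalization; FastQC, STAR, DESeq and genome build hg38 are named, per the submitters' processing notes. Per the labels, libraries were made with a stranded mRNA kit. The sources used here do not give tool versions, the counting tool or the gene annotation. The series' design text says that the authors left out 1 control library that clustered apart; it was not analysed here, so the spread of the Control group may be too small. Column names give a library's group and no replicate number, so libraries are named by their order within a group.

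Genes were kept with filterByExpr of edgeR at a minimum count of 10 (13124 of 20294). CPM values used TMM scaling factors. Differences were tested with edgeR 4.0.16 in R 4.3.3, by the quasi-likelihood F test, two-sided, with Benjamini-Hochberg adjustment over all 13124 genes and a threshold of 0.05. Each guide against Control and the guides against each other were contrasts of 1 fit of 3 groups; the pooled comparison used a fit of 2 levels. Standard errors were derived from F. Alternatives were RLE size factors, DESeq2 1.42.0, limma-voom (limma 3.58.1), no filter, a minimum count of 30, each library left out, and HLA-DRB1 and HLA-DRB5 summed. The code was tested on simulated counts. Counts of replicate libraries differed by more than sampling noise in every pair.

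Positions, lengths (median of the basic coding transcripts) and 50-base words come from GENCODE 29 on GRCh38, which matched 19873 symbols. Levels for comparing genes are CPM per kb. Counting intervals are exact and cover counting error only. From each list of more than 8 genes up to 4 called genes with the smallest adjusted p are named, and all genes of shorter lists; other genes named (single marker genes, CTSS, NLRC5, TAP1, PSMB8, PSMB9, AL669918.1, BRD2, SYNPO and DEXI) were chosen after their values were seen. One gene that the rule names is not reported here. The 10 genes and the lists were chosen with earlier results of these data known.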

Additional observations from a re-analysis of the deposited data

Results flagged for a closer look

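The 2 guides target the same gene. Of the genes named, 23 differed between them in edgeR's quasi-likelihood test of sgEZH2-1 minus sgEZH2-2 (adjusted p of at most 0.05). They are listed here for that reason. Over all genes tested, 10.4% were called higher and 11.5% lower in this comparison. Genes of the longer lists were named for a small adjusted p in any comparison, this one included. The number 23 is therefore no finding. Among the class II genes the log2 differences were -0.73 for CIITA, -1.03 for CD74, -1.23 for HLA-DRA, -0.96 for HLA-DRB1, -0.97 for HLA-DPA1, -1.49 for HLA-DPB1, -0.73 for HLA-DMA and -1.31 for HLA-DMB. Among partners of CIITA they were -0.19 for SIN3A, -0.24 for CDK9 and 0.17 for CREBBP. In the interferon-gamma list it was -1.11 for SOCS3. Among endosomal proteases they were -0.34 for CTSB and -0.21 for CTSH. Costimulation genes gave -0.26 for CD40, -0.34 for TNFSF9 and 0.33 for CD58, and class I genes -0.31 for HLA-F and 0.29 for TAP2. In Polycomb repressive complex 2 they were -0.36 for EZH2, 0.22 for EED, -0.28 for RBBP4 and -0.16 for RBBP7. Why the guides differ was not tested.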

How the results depend on the processing

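No paired analysis was possible because the columns carry no replicate number. Leaving out 1 library at a time gave 2 to 6 called genes of the 10 with sgEZH2-1 (5 with all libraries; 2 without the first Control library), 6 to 9 with sgEZH2-2 (9 with all), 7 to 8 between the guides (8 with all) and 0 to 5 with the guides pooled (3 with all). Without a Control library the other is assumed to vary like the guide libraries. For the pooled guides DESeq2 called 5, the mean of both guides in the fit of 3 groups called 8, and limma-voom called 0 (6 at an unadjusted p under 0.05). The pooled CIITA value ran from -0.0003 (without the second sgEZH2-2 library) to 0.207, and HLA-DMA with sgEZH2-1 from -0.446 to 0.034 (without the second sgEZH2-1 library); the cause was not tested. Of the single-gene values, 1007 kept their side of the threshold and direction, 133 lost their call, 12 gained one and 2 turned sign. Over all genes, calls without the first or second Control library were 163 and 145 for the pooled guides (572 with all libraries, and 1612 for the mean of both guides in the fit of 3 groups) and 521 and 579 for sgEZH2-2 (1139 with all, 660 and 688 without its second or the third library). For sgEZH2-1 they were 1373 without the first Control library and 1804 without its own second (2726 with all), and between the guides 1691 without the second sgEZH2-1 and 1521 and 1572 without the second or the third sgEZH2-2 library (2874 with all). HLA-DRB5, HLA-DPB1 and HLA-DQB1 rest on 10 or fewer counts per Control library, which limits their fold changes.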
